A study of Homo sapiens with 9 samples.

Results

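Mucin-type O-glycans are sugar chains built in the Golgi on serine and threonine residues of secreted and membrane proteins. The 34 genes described here encode the enzymes that start, branch and sialylate these chains, together with the chaperone of the core 1 enzyme. A gene was measured where a probe set of the array was annotated to it and to no other gene, and where a gene had several such probe sets the one of highest average level was taken. By this rule 31 of the 34 genes were measured, out of 14215 genes with such a probe set in a table of 17859 probe sets. GALNT10 and GCNT2 were present only on probe sets that name several genes, and GALNT16 had no probe set matched here, so these 3 have no value.

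The cells were SKOV3, an established human ovarian tumour line, grown for 3 days in McCoy's 5A medium with fetal bovine serum. One group was untreated, and no solvent control is named in the labels. A second group received 50 µM of acetylated N-acetylglucosamine (Ac-GlcNAc, with 4 acetyl groups per the labels), and the last received 50 µM of acetylated 4-deoxy-N-acetylglucosamine (Ac-4-deoxy-GlcNAc, with 3 acetyl groups), which lacks the hydroxyl group at carbon 4. Each group had 3 arrays, each from a separate culture flask, so the tests measure the spread between flasks of 1 cell line. Values are log2 levels of total RNA made by RMA, an array summary method, and a difference of 1 on that scale is a doubling. In bulk RNA, fewer cells of a kind and less RNA per cell cannot be told apart.

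The chain begins when a polypeptide GalNAc-transferase (GALNT family) attaches N-acetylgalactosamine (GalNAc) to the protein. C1GALT1, which needs the chaperone C1GALT1C1 (COSMC), adds galactose to form core 1, and B3GNT6 forms core 3 instead. GCNT1, GCNT3 and GCNT4 make core 2 branches, and GCNT3 makes core 4 as well. Sialyltransferases of the ST3GAL and ST6GALNAC families cap or end the chains, and short sialylated or unextended chains are well known on carcinoma cells.

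The promoter windows of GALNT3, GALNT12 and GCNT3 are shown because these members differed between groups, in a pairwise comparison or over the 3 groups together, and have a window in the RefSeq table (assembly GRCh38.p14). Each window holds the 250 bases before the gene's start, at chr2:165794248-165794497 (minus strand) for GALNT3, chr9:98807420-98807669 (plus strand) for GALNT12 and chr15:59611533-59611782 (plus strand) for GCNT3. Capitals mark GC boxes (GGGCGG) and CCAAT boxes (CCAAT), each read on both strands.
GALNT3: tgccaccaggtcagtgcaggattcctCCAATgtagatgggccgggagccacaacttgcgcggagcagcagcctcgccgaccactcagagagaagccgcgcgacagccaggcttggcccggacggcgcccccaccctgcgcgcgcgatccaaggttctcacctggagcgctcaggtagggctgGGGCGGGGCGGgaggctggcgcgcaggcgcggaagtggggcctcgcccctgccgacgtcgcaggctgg
GALNT12: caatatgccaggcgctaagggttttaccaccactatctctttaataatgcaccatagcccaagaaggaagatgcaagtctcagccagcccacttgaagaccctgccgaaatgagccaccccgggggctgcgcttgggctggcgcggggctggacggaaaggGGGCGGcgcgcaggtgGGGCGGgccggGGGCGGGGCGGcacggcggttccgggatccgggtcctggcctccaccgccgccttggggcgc
GCNT3: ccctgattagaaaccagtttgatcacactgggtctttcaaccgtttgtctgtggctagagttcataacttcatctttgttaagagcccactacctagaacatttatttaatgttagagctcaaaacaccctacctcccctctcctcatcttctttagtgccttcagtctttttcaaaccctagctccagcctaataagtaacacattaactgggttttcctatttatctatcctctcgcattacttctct
The GALNT3 window held 2 GC boxes that overlap each other and 1 CCAAT box, at a GC content of 71.6%. The GALNT12 window held 4 GC boxes, of which the last pair overlap, at 67.2% GC. The GCNT3 window held neither motif, at 40.4% GC. Windows were found for 24 of the 34 members, 37 windows in all, and 23 of these 37 held a GC box, against 42.6% of the 35116 windows in the table. A CCAAT box was in 9 of the 37 (32% of all windows), a TATA box (TATAAA) in 0 of the 37 (10.7% of all windows) and an E-box (CACGTG) in 2 of the 37 (6.34% of all windows). These matches describe the letters only.

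Few of the 31 measured members differed between groups. With Ac-4-deoxy-GlcNAc against untreated cells, GALNT12 was higher and GALNT3 and ST6GALNAC2 were lower, each by less than 1.5-fold. With Ac-GlcNAc against untreated cells no member was called. Between the compounds ST6GALNAC2 was the 1 member called, lower with Ac-4-deoxy-GlcNAc. A call means an adjusted p under 0.05 from limma, the p-values of all 17859 probe sets being adjusted together by the Benjamini-Hochberg method.

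With Ac-4-deoxy-GlcNAc against untreated, 3 of 31 members (9.68%) were called, where 11.0% of all probe sets were, so the members' share was near the background. By direction, 1 member was higher and 2 were lower, beside 5.38% and 5.64% of all probe sets. With Ac-GlcNAc against untreated, 0 of 31 were called by limma, where 0.442% of all probe sets were. Of all probe sets, 0.207% were higher and 0.235% lower with Ac-GlcNAc. An unadjusted limma p under 0.05 was found there for 8 members, beside 4719 of the 17859 probe sets. That count was 14 members with Ac-4-deoxy-GlcNAc against untreated (5579 probe sets) and 4 members between the compounds (2429 probe sets). Between the compounds, 1 of 31 (3.23%) was called beside 2.38% of all probe sets; 0.896% of all probe sets were higher with Ac-4-deoxy-GlcNAc and 1.48% lower. A moderated F test over the 3 groups called GALNT3, GCNT3 and ST6GALNAC2, 3 of 31 members, beside 8.36% of all probe sets.

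The intervals show how much change these arrays leave room for. The 95% confidence interval of the difference lay within 1.5-fold in either direction for 27 of 31 members with Ac-GlcNAc, beside 84.0% of all probe sets. With Ac-4-deoxy-GlcNAc this held for 24 of 31 (80.3% of all probe sets), and between the compounds for 30 of 31 (90.9%). The median log2 difference of the members was -0.06 with Ac-GlcNAc, -0.08 with Ac-4-deoxy-GlcNAc and -0.04 between the compounds, where all probe sets had -0.02, -0.05 and 0.00. Both comparisons with untreated cells use the same 3 untreated arrays, so they are not independent of each other.

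**Figure D1:**
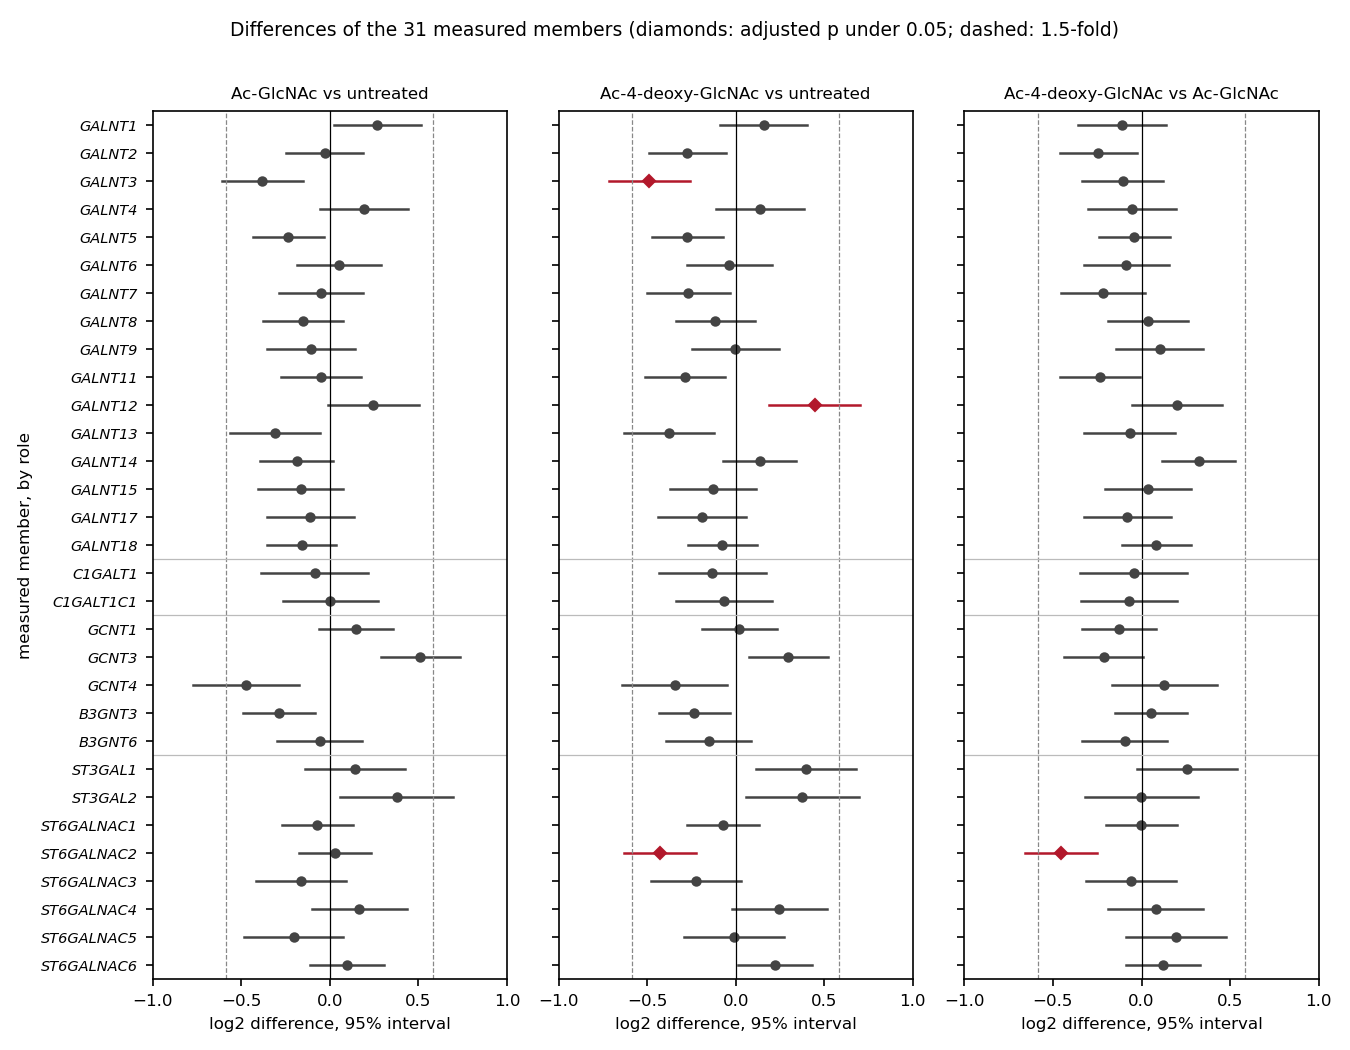
Log2 difference and 95% confidence interval of each of the 31 measured members, by step of the pathway, in the 3 comparisons; red diamonds are called (limma, adjusted p under 0.05). No interval in the first comparison belongs to a called member, 3 do in the second and 1 in the third.

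Chain initiation was measured for 16 of the 18 GALNT genes. With Ac-4-deoxy-GlcNAc against untreated, 2 of the 16 (12.5%) were called, in opposite directions, beside 11.0% of all probe sets. GALNT3 is the enzyme known for protecting the phosphate hormone FGF23 from cleavage. Its log2 level was 4.96, 5.24 and 4.93 in the untreated flasks, 4.59, 4.75 and 4.65 with Ac-GlcNAc, and 4.45, 4.66 and 4.55 with Ac-4-deoxy-GlcNAc. All 3 untreated arrays were above all 6 treated arrays, and the treated groups overlapped each other. GALNT3 fell by 0.49 (SE 0.11, 95% interval -0.72 to -0.26, limma adjusted p = 0.0136) with Ac-4-deoxy-GlcNAc. With Ac-GlcNAc the difference was -0.38 and was not called (limma adjusted p = 0.0891), and between the compounds it was -0.11 (-0.33 to 0.12).

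A second GALNT3 probe set, of lower signal, gave -0.45 with Ac-4-deoxy-GlcNAc and was not called (limma adjusted p = 0.0679). The GALNT3 call was lost when Ac-4-deoxy-GlcNAc replicate 1 or replicate 3 was left out (limma adjusted p = 0.0539 and 0.0537). The GALNT3 signal was low on this array, at the 22nd percentile of probe sets by mean level.

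GALNT12 moved the other way. Its log2 level was 6.55, 6.11 and 6.36 in the untreated flasks, 6.61, 6.56 and 6.59 with Ac-GlcNAc, and 6.62, 6.82 and 6.92 with Ac-4-deoxy-GlcNAc. All 6 treated arrays were above all 3 untreated arrays, with untreated replicate 2 the lowest of the 9. GALNT12 rose by 0.45 (SE 0.12, 0.19 to 0.70, limma adjusted p = 0.0313). With Ac-GlcNAc the difference was 0.25 (-0.01 to 0.50, limma adjusted p = 0.202), and between the compounds it was 0.20 (-0.06 to 0.45, limma adjusted p = 0.543). The call was lost without untreated replicate 2, untreated replicate 3, Ac-4-deoxy-GlcNAc replicate 2 or Ac-4-deoxy-GlcNAc replicate 3, with the difference then between 0.33 and 0.45 and the limma adjusted p up to 0.137.

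**Figure D2:**
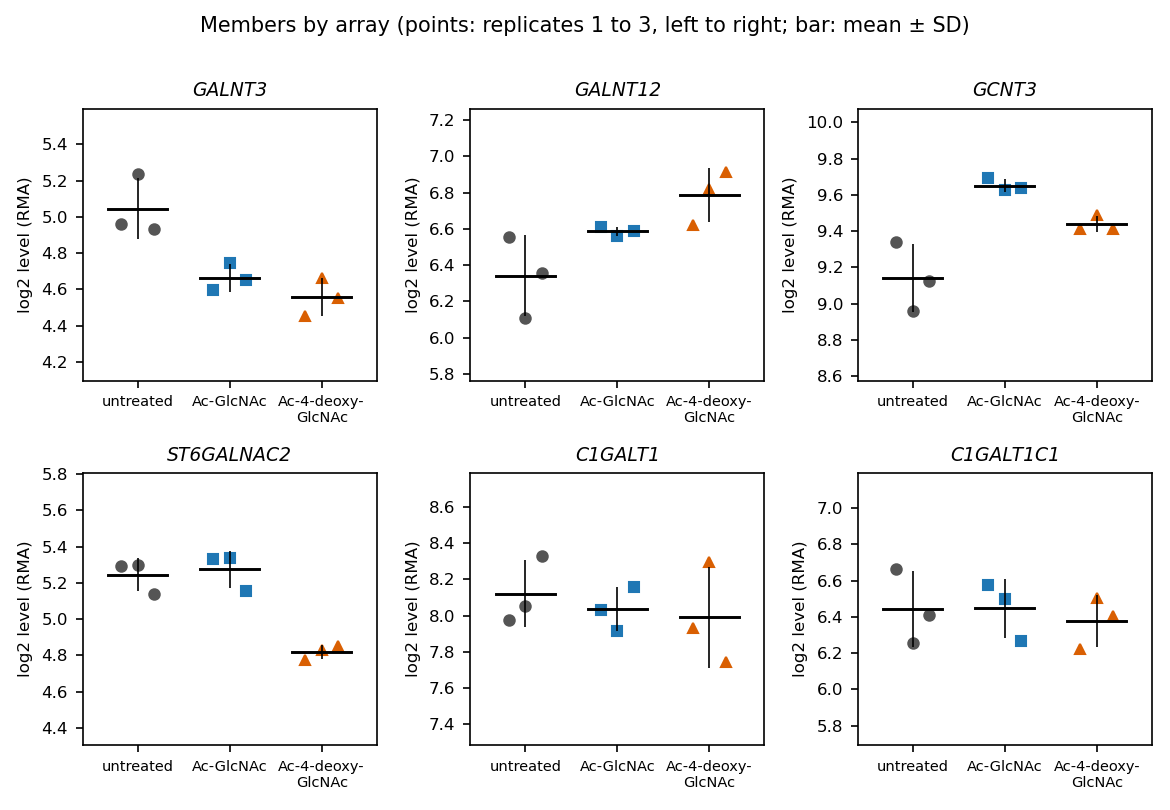
Log2 level of the members called in any comparison or in the F test, and of C1GALT1 and C1GALT1C1, in each of the 9 arrays; points are arrays, horizontal bars are group means and vertical lines are 1 SD to each side. ST6GALNAC2 is lower in the Ac-4-deoxy-GlcNAc arrays than in the other 6, while the groups overlap for C1GALT1 and C1GALT1C1.

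The remaining 14 measured GALNT genes were not called in any comparison. GALNT1 and GALNT2, which glycosylate many proteins, gave 0.27 (0.02 to 0.51) and -0.03 (-0.25 to 0.19) with Ac-GlcNAc, and 0.16 (-0.09 to 0.40) and -0.27 (-0.49 to -0.06) with Ac-4-deoxy-GlcNAc. GALNT7, which prefers peptides that already carry GalNAc, gave -0.27 (-0.50 to -0.03) with Ac-4-deoxy-GlcNAc. GALNT11, known for glycosylating receptors of the LDL receptor family, gave -0.29 (-0.51 to -0.06, limma adjusted p = 0.0884). For these 4 the intervals against untreated cells all lay within 1.5-fold.

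GALNT14, an enzyme linked to O-glycosylation of death receptors, had the largest uncalled difference between the compounds among the 31 members. Its Ac-4-deoxy-GlcNAc level minus its Ac-GlcNAc level was 0.32 (0.12 to 0.53, limma adjusted p = 0.106), from means of 7.24 ± 0.13 and 6.91 ± 0.05 (SD, n = 3 each), and its untreated mean was 7.10 ± 0.05. After cyclic loess or quantile normalization of the deposited values, and with array weights, GALNT14 passed the threshold in that comparison. GALNT13 and GALNT5 gave -0.38 and -0.27 with Ac-4-deoxy-GlcNAc (limma adjusted p = 0.0562 and 0.0714), and their signal lay under the 10th percentile of probe sets. In the other 7 GALNT genes the differences with either compound lay between -0.19 and 0.19.

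The core 1 step showed no called difference. C1GALT1, the only enzyme known to form core 1 in human cells, had log2 levels of 7.98, 8.05 and 8.33 in the untreated flasks, 8.03, 7.91 and 8.16 with Ac-GlcNAc, and 7.93, 8.29 and 7.74 with Ac-4-deoxy-GlcNAc. The 3 groups overlapped. The difference from untreated was -0.09 (-0.39 to 0.21) with Ac-GlcNAc and -0.13 (-0.43 to 0.17) with Ac-4-deoxy-GlcNAc, and between the compounds it was -0.04 (-0.34 to 0.26). Its chaperone C1GALT1C1, without which C1GALT1 is degraded, had 6.66, 6.25 and 6.41 in the untreated flasks, 6.57, 6.50 and 6.27 with Ac-GlcNAc, and 6.22, 6.50 and 6.41 with Ac-4-deoxy-GlcNAc. Those groups overlapped too, with differences of 0.00 (-0.27 to 0.27), -0.07 (-0.34 to 0.20) and -0.07 (-0.34 to 0.20). For both genes a change of 1.5-fold lay outside all 3 intervals.

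Branching and core 3 formation were measured for 5 of 6 genes, of which the F test called GCNT3 and no pairwise comparison called any. The F test called 8.36% of all probe sets. GCNT3 is the mucin-type enzyme that makes core 2 and core 4 branches. Its log2 level was 9.34, 8.96 and 9.13 in the untreated flasks, 9.69, 9.62 and 9.64 with Ac-GlcNAc, and 9.41, 9.49 and 9.41 with Ac-4-deoxy-GlcNAc. The groups did not overlap: every untreated array was lowest, then every Ac-4-deoxy-GlcNAc array, then every Ac-GlcNAc array. The F test gave a limma adjusted p of 0.0236, while the difference was 0.51 with Ac-GlcNAc (SE 0.10, 0.29 to 0.73, limma adjusted p = 0.0517), 0.30 with Ac-4-deoxy-GlcNAc (0.07 to 0.52, limma adjusted p = 0.0781) and -0.21 between the compounds (-0.44 to 0.01, limma adjusted p = 0.4). GCNT3 passed the threshold with Ac-GlcNAc when untreated replicate 1 was left out (0.61, limma adjusted p = 0.0190), and with Ac-4-deoxy-GlcNAc too (0.40, limma adjusted p = 0.0236). That fit keeps untreated replicate 2, the lowest array for GCNT3. The F test call of GCNT3 was kept without untreated replicate 2. It was lost without untreated replicate 3, any 1 of the Ac-GlcNAc arrays, or replicate 3 of Ac-4-deoxy-GlcNAc. Adding each array's SD over probe sets to the fit as a covariate lost it too.

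The other branching and extension genes were not called. GCNT1, a widely expressed core 2 enzyme, gave 0.15 (-0.06 to 0.36) with Ac-GlcNAc and 0.02 (-0.19 to 0.23) with Ac-4-deoxy-GlcNAc. GCNT4, also a core 2 enzyme, gave -0.47 (-0.77 to -0.18, limma adjusted p = 0.0923) and -0.34 (-0.64 to -0.05, limma adjusted p = 0.113), at low signal. B3GNT3, which extends core 1, gave -0.29 (-0.49 to -0.08) and -0.23 (-0.44 to -0.03), and B3GNT6, the core 3 enzyme, -0.06 (-0.30 to 0.18) and -0.15 (-0.39 to 0.09).

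Sialylation was measured for all 8 genes, and ST6GALNAC2, which adds sialic acid to the GalNAc of the chain, was the 1 called. Its log2 level was 5.30, 5.30 and 5.14 in the untreated flasks, 5.33, 5.34 and 5.15 with Ac-GlcNAc, and 4.77, 4.83 and 4.85 with Ac-4-deoxy-GlcNAc. The 3 Ac-4-deoxy-GlcNAc arrays were below the other 6, and the untreated and Ac-GlcNAc arrays overlapped. ST6GALNAC2 fell by 0.43 against untreated (SE 0.09, -0.63 to -0.22, limma adjusted p = 0.0142) and by 0.46 against Ac-GlcNAc (SE 0.09, -0.66 to -0.25, limma adjusted p = 0.0229), a 1.37-fold lower level between compounds given at the same dose and for the same time. With Ac-GlcNAc the difference from untreated was 0.03 (-0.17 to 0.23). The ST6GALNAC2 signal was low on this array, at the 29th percentile of probe sets by mean level.

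The size of this difference moved little with the arrays used, from -0.52 to -0.43 between the compounds when each array was left out. The call between the compounds was lost without Ac-GlcNAc replicate 1 or 2, or without Ac-4-deoxy-GlcNAc replicate 1 or 3 (limma adjusted p up to 0.118), and against untreated it was lost without Ac-4-deoxy-GlcNAc replicate 1 (limma adjusted p = 0.0513). ST6GALNAC1, the enzyme that makes sialyl-Tn and, like ST6GALNAC2, lies on chromosome 17, gave -0.07 (-0.27 to 0.13) with each compound. Of the 31 measured members, 8 overlap another coding gene in the RefSeq annotation, GALNT3 and ST6GALNAC2 among them, and the share of signal from such a partner was not tested.

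ST3GAL1 and ST3GAL2, which cap the galactose of core 1, were not called. ST3GAL1 gave 0.14 (-0.14 to 0.42) with Ac-GlcNAc and 0.40 (0.11 to 0.68, limma adjusted p = 0.0658) with Ac-4-deoxy-GlcNAc. ST3GAL2 gave 0.38 with each compound (0.06 to 0.70 and 0.06 to 0.69, limma adjusted p = 0.14 and 0.107), with a wide untreated spread of 7.87 ± 0.35 (SD, n = 3). The other 4 sialyltransferases, ST6GALNAC3 to ST6GALNAC6, which act on already sialylated chains or on glycolipids, gave -0.20 to 0.17 with Ac-GlcNAc and -0.22 to 0.25 with Ac-4-deoxy-GlcNAc. Between the compounds their differences lay between -0.06 and 0.19.

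Only 1 pair of related compounds was compared, and ST6GALNAC2 was the 1 member called between them (3.23% of 31, beside 2.38% of all probe sets). That call was kept in 5 of the 9 fits without 1 array. For 30 of 31 members the interval between the compounds lay within 1.5-fold, which bounds the difference and does not show that the compounds act alike. GALNT14 (0.32), GALNT2 (-0.24) and GALNT11 (-0.24) had an unadjusted p under 0.05 without being called. Of the 17859 probe sets, 2429 had an unadjusted p under 0.05 in this comparison.

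The direction of the differences is given here by signal on the array. Of the 20 members under the 50th percentile of mean level, 14 were lower with Ac-GlcNAc and 17 with Ac-4-deoxy-GlcNAc, each against untreated cells. Of all probe sets under it, 80.7% and 76.1% were lower. Of the 11 members above it, 5 and 4 were lower, beside 24.6% and 40.0% of all probe sets. Between the compounds 11 of the 20 and 8 of the 11 were lower, beside 36.0% and 62.3% of all probe sets. The relation of sign to signal among the members was not tested. Untreated replicate 2 was the highest untreated array for 13 of the 20 low members and for 0 of the 11 high ones, beside 71.6% and 11.0% of all probe sets, and its SD over probe sets was 1.92 against 2.07 to 2.18 on the other arrays. The array's part in the members' differences was not tested. With the SD of each array added to the fit as a covariate, 0 members were called in the comparison with Ac-4-deoxy-GlcNAc (GALNT3 -0.37, GALNT12 0.24 and ST6GALNAC2 -0.38), and without untreated replicate 2 alone GALNT3 and ST6GALNAC2 were still called.

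**Figure D3:**
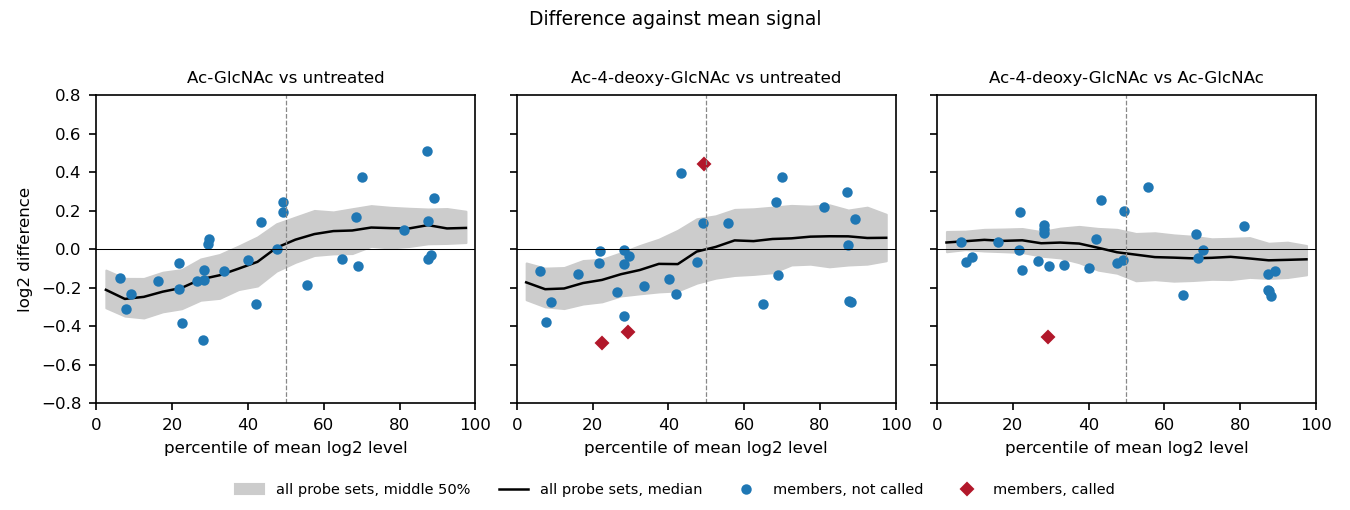
Log2 difference of the 31 members against the percentile of mean log2 level, with the median and middle 50% of all probe sets as a line and band, in the 3 comparisons. The line lies below 0 at low signal and above 0 at high signal in both comparisons with untreated cells, the band spanning 0 at high signal with Ac-4-deoxy-GlcNAc, and the called ST6GALNAC2 and GALNT3 lie at the 29th and 22nd percentile.

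Genes that supply the donor sugars were measured for 12 of 16 entries. With Ac-4-deoxy-GlcNAc, GNE, the first enzyme of sialic acid synthesis, rose by 0.44, NANS, a later enzyme of that route, by 0.41, and SLC35D2, a Golgi carrier of UDP-sugars, by 0.39, while NAGK, the kinase of free GlcNAc, fell by 0.51 (limma adjusted p = 0.0115, 0.0376, 0.031 and 0.00746). The calls of GNE and NAGK were kept in all 9 fits without 1 array, that of SLC35D2 in 5 and that of NANS in 2, and the rises of GNE, NANS and SLC35D2 were not called with the array SD as covariate. NAGK was also lower than with Ac-GlcNAc, by 0.41 (limma adjusted p = 0.0451), a call that 6 of the 9 fits without 1 array lost. Between the compounds NAGK was the 1 called of the 12 (8.33%, beside 2.38% of all probe sets). With Ac-GlcNAc 0 of the 12 were called by limma, beside 0.442% of all probe sets. An unadjusted p under 0.05 was found there for 4, beside 4719 of the 17859 probe sets. SLC35D2 (0.48) and NANS (0.41) had the smallest of the 12.

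Enzymes of later extension and capping were measured for 27 of 31 entries. CHST2, a sulfotransferase acting on GlcNAc, was the 1 called (3.70% of 27, beside 11.0% of all probe sets). It fell by 0.48 with Ac-4-deoxy-GlcNAc against untreated (SE 0.09, -0.68 to -0.27, limma adjusted p = 0.00826), in all 9 fits without 1 array. With Ac-GlcNAc limma called 0 of 27, beside 0.442% of all probe sets. An unadjusted p under 0.05 was found there for 3, beside 4719 of the 17859 probe sets. The smallest of the 27 belonged to CHST4 (-0.40) and ST3GAL6 (-0.25). Between the compounds limma called 0 of 27, beside 2.38% of all probe sets. Of the 27, 3 had an unadjusted p under 0.05, among them CHST2 (-0.34) and B4GALT5 (-0.35). All probe sets had 2429 of 17859 at that level. Of 15 measured genes for other O-linked sugars, such as O-fucose and O-mannose, LFNG, which extends O-fucose on Notch, fell by 0.52 with Ac-4-deoxy-GlcNAc (limma adjusted p = 0.00914), and 14 were not called. The 1 called is 6.67% of the 15, beside 11.0% of all probe sets. The LFNG call was kept in all 9 fits without 1 array and lost with the array SD as covariate. The GALNT relatives GALNTL5 and GALNTL6 were not called in any comparison.

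Mucins and mucin-domain proteins carry many of these chains. Of 26 listed, 14 were measured, and with Ac-4-deoxy-GlcNAc 3 were higher and 3 lower (42.9% called, beside 11.0% of all probe sets); whether this share differs from that of the enzymes was not tested. MUC1, a membrane mucin of epithelia, had log2 levels of 8.32, 8.56 and 8.53 in the untreated flasks, 7.92, 7.95 and 7.89 with Ac-GlcNAc, and 7.73, 7.79 and 7.74 with Ac-4-deoxy-GlcNAc. None of the 3 groups overlapped. MUC1 fell by 0.72 with Ac-4-deoxy-GlcNAc (SE 0.09, -0.92 to -0.51, limma adjusted p = 0.00101), in all 9 fits without 1 array. It fell by 0.55 with Ac-GlcNAc (SE 0.09, -0.75 to -0.35, limma adjusted p = 0.0299), a call lost without untreated replicate 2 or any 1 of the Ac-GlcNAc arrays (limma adjusted p up to 0.134).

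The other called carriers moved in both directions. With Ac-4-deoxy-GlcNAc the sialomucins CD34 and PODXL fell by 0.58 and 0.35 (limma adjusted p = 0.00728 and 0.0259). SELPLG, the selectin ligand PSGL-1, rose by 0.51, CD24 by 0.43 and the hyaluronan receptor CD44 by 0.36 (limma adjusted p = 0.00825, 0.0354 and 0.0499). CD24 rose by 0.62 with Ac-GlcNAc too (limma adjusted p = 0.0468), so 2 of 14 carriers (14.3%) were called there, beside 0.442% of all probe sets. The CD24 and CD44 calls were each kept in 2 of the 9 fits without 1 array, that of PODXL in 5, and CD24 has near-identical copies in the genome that an array may not separate. With the array SD as covariate the rises of SELPLG, CD24 and CD44 and the fall of MUC1 with Ac-GlcNAc were not called. The falls of MUC1, CD34 and PODXL with Ac-4-deoxy-GlcNAc were still called. The CD24 call with Ac-GlcNAc was also lost with cyclic loess, quantile normalization and median centring. Between the compounds limma called 0 of 14 carriers, beside 2.38% of all probe sets. Of the 14, 1 had an unadjusted p under 0.05, beside 2429 of the 17859 probe sets.

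**Figure D4:**
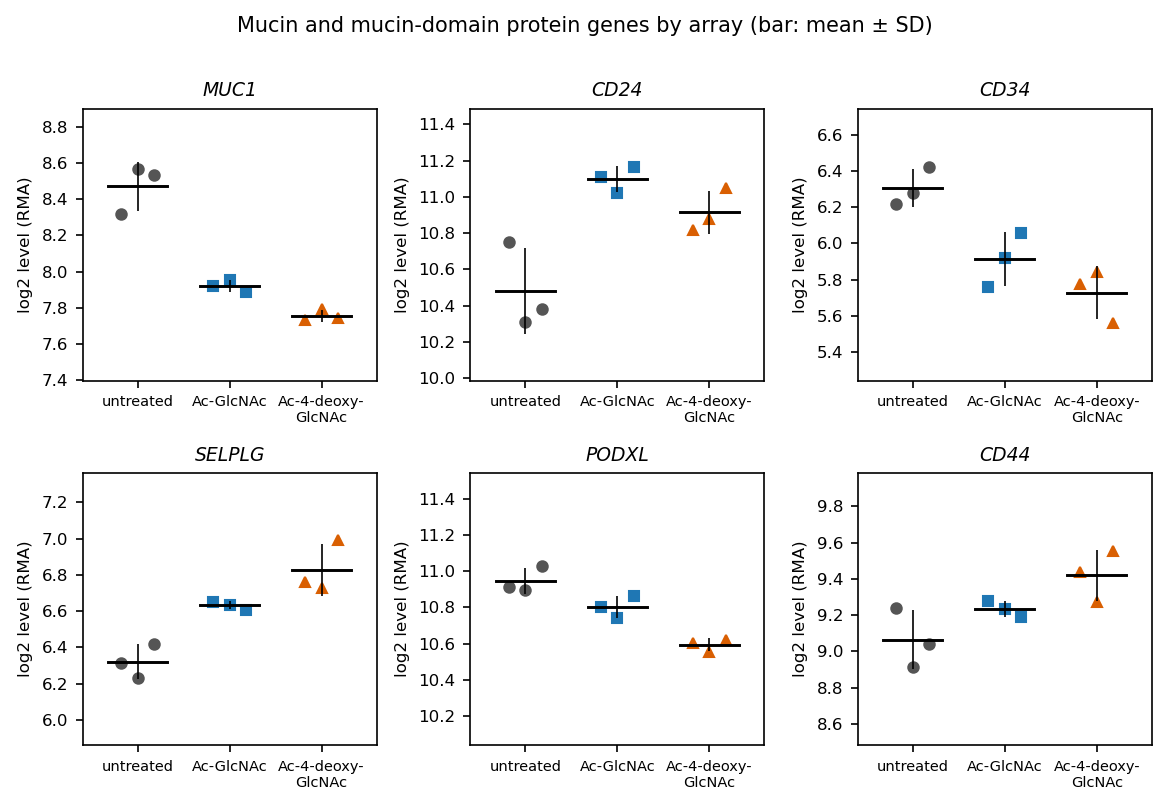
Log2 level of the called mucins and mucin-domain proteins in each of the 9 arrays; points are arrays, horizontal bars are group means and vertical lines are 1 SD to each side. MUC1 lies at 8.32 or above in the untreated arrays and at 7.95 or below in the treated ones.

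The arrays carried the markers of an epithelial tumour line. Lowest, median and highest log2 levels over the 9 arrays were 10.88, 11.11 and 11.32 for KRT8, 8.46, 8.79 and 8.99 for KRT18, 7.78, 8.04 and 8.36 for EPCAM and 12.18, 12.26 and 12.30 for ERBB2. PTPRC, the defining leukocyte marker, lay at 3.98, 4.13 and 4.70, and PECAM1 at 5.24, 5.54 and 5.75. Not every marker followed its list: CD68 and COL1A1 lay at the 85th and 78th percentile of probe sets by mean level, and the epithelial list's WT1 at the 39th. With Ac-4-deoxy-GlcNAc 3 of 13 epithelial markers were called (CDH1 higher, KRT7 and KRT19 lower), 5 of 9 fibroblast markers (all lower) and 2 of 7 immune and endothelial ones, beside 11.0% of all probe sets called and 5.64% lower. LUM and FAP of the fibroblast list and CD68 were each called in 2 of the 9 fits without 1 array. The mean level of the 9 fibroblast markers was 5.83 to 5.99 in the untreated arrays, 5.53 to 5.64 with Ac-GlcNAc and 5.47 to 5.49 with Ac-4-deoxy-GlcNAc, and their part in the members' differences was not tested.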

How the data were processed

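Total RNA of 9 flasks of SKOV3 cells was measured on 9 arrays. The authors deposited log2 values, for which the submitters' processing notes name RMA, Partek and the build hg18; settings, filters and versions are not given in the sources used here. RMA compresses low signals, and no background measure was used, so low levels have no detection limit here. Precision rests on 3 arrays a group; a log2 difference had a standard error of 0.11 at the median.

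Of 17859 probe sets, 14413 were paired with 1 gene, 2405 with several and 1041 with none; 14385 of the 14413 were found by gene identifier in a RefSeq table of assembly GRCh38.p14, used for symbols, overlaps and promoter windows only. These values went into limma (version 3.58.1, R 4.3.3; lmFit and eBayes) without further scaling, all 9 arrays sharing 1 fit with a term for group and 6 residual degrees of freedom. Tests were two-sided, and p-values were adjusted by Benjamini-Hochberg across the 17859 probe sets. The fit was also run on simulated arrays with independent noise. Those lacked the narrower spread of untreated replicate 2, so that run cannot test how the calls depend on that array.

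The members and lists were chosen with earlier results of these data known. Values by array are given for members called in any comparison or in the F test, and for C1GALT1 and C1GALT1C1. From the other lists all called genes were named (at most 6), or, with no call, the 2 of smallest p; the markers were fixed as KRT8, KRT18, EPCAM, ERBB2, PTPRC and PECAM1. MUC1 by array, GALNT14, WT1 and the called markers were added after their values were seen. Other settings were a replicate block, cyclic loess, quantile normalization, median centring, array weights, a signal filter keeping probe sets above the 50th percentile, trended and robust eBayes, each array's SD as covariate, the 6 compared arrays alone, the mean of a gene's probe sets, and leaving out 1 array, or both untreated replicate 2 and replicate 1 of Ac-4-deoxy-GlcNAc.

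Same-numbered arrays of different groups had residual correlations of -0.24 to 0.37, over 0.1 in 3 of 9 pairs. Differently numbered arrays of different groups had -0.40 to 0.41, so the numbers were not taken as pairs.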

Additional observations from a re-analysis of the deposited data

How the results depend on the processing

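With Ac-GlcNAc against untreated, 0 members were called; 1 was called with the replicate block, with the signal filter and with trend and robust options (GCNT3 each time), 3 with array weights, and 0 to 2 with 1 array left out. With Ac-4-deoxy-GlcNAc against untreated, 3 members were called; 5 with the replicate block, cyclic loess or quantile normalization, 0 with the signal filter (which leaves 11 members and none of the 3), 0 with the array SD as covariate, 1 without both untreated replicate 2 and replicate 1 of Ac-4-deoxy-GlcNAc, and 1 to 7 with 1 array left out. Between the compounds 1 was called; 2 with cyclic loess, quantile normalization or array weights, 0 with the filter, and 0 to 1 with 1 array left out. The F test called 3 members; 1 with the filter, 6 with array weights, 1 with the array SD, 0 without both arrays, and 0 to 5 with 1 array left out.

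Over all probe sets, the 79 called with Ac-GlcNAc became 324 with the replicate block, 47 with cyclic loess, 36 with quantile normalization, 32 with median centring, 154 with the filter, 141 with trend and robust options, 1760 with array weights, 2 with the array SD, 49 without both arrays and 48 with the 6 compared arrays alone, and 4 to 1359 with 1 array left out. The 1968 called with Ac-4-deoxy-GlcNAc became 596 with the array SD, 730 without both arrays, 818 with the 6 arrays alone and 604 to 3076 with 1 array left out. The 425 between the compounds became 1187 with array weights and 141 to 659 with 1 array left out. The causes were not tested. The block is given although the numbers were not taken as pairs.

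Signs were followed for the 6 members given by array, and turned only in differences that were not called: GALNT12 with Ac-GlcNAc (-0.041 with the array SD), C1GALT1 between the compounds (0.0013 with cyclic loess, 0.10 with array weights), C1GALT1C1 with Ac-GlcNAc (-0.023 with median centring, -0.17 with the array SD, -0.092 without both arrays) and between the compounds (0.0081 without both arrays). With 1 array left out the sign also turned for ST6GALNAC2 with Ac-GlcNAc (-0.024 to 0.089), C1GALT1 with Ac-GlcNAc (-0.16 to 0.018), C1GALT1 between the compounds (-0.20 to 0.078), C1GALT1C1 with Ac-GlcNAc (-0.092 to 0.11), C1GALT1C1 with Ac-4-deoxy-GlcNAc (-0.16 to 0.044) and C1GALT1C1 between the compounds (-0.16 to 0.0081).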
